A study of Mus musculus with 3 samples.

Results

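The 10 genes examined here belong to the extracellular ATP and adenosine pathway and were looked for in sorted follicular regulatory T (Tfr) cells: Nt5e, Entpd1, Adora2a, Adora2b, Ada, Adk, Dpp4, P2rx7, P2rx4 and Slc29a1. Every probe set that the platform annotation gives to one of these symbols alone was taken, which found 25 of the 45101 probe sets in the table and 8 of the 10 genes. No probe set was named for the adenosine receptors Adora2a and Adora2b, which were not analysed here. The measurements came from 3 single-colour Affymetrix arrays of C57BL/6 spleen cells, sorted 8 days after OVA immunization from lineage-depleted cells by CD4, CD44, GITR, CD25 and CXCR5. The Rptor-null group was 2 pools of 8 mice each, which carried CD4-Cre and the floxed alleles Rptorfl/fl, and the wild-type (WT) group was 1 pool of 4 mice. The product of Rptor, raptor, brings substrates to the kinase in mTORC1, and CD4-Cre acts throughout the T cell lineage, so the deletion was not limited to Tfr cells. The ages and sexes of the mice are not given in the sources used here, nor is whether the WT mice carried Cre or floxed alleles. On its brightest probe set Rptor read 353 and 412 on the arrays labelled Rptor-null, against 365 on the WT array, and the gene did not pass the limma test described with the results (adjusted p = 0.824). Its other 2 probe sets were not lower on average either, at 48.1 and 36.4 in Rptor-null cells against 30.8 in WT cells, and at 24.1 and 21.1 against 21.9. Whether these probe sets cover the floxed sequence is not given in the sources used here, so the loss of Rptor was not checked by the arrays, and the names Rptor-null and WT, with every direction given for them, rest on the labels.

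ATP leaves activated, stressed or dying cells and opens P2X channels on their neighbours, of which P2X7 can lead T cells to shed surface proteins and die. Regulatory T cells are known for carrying on their surface CD39 (Entpd1), which trims ATP and ADP to AMP, and CD73 (Nt5e), which turns AMP into adenosine. Adenosine then raises cAMP in T cells through its receptors and restrains them, until it is taken up by the transporter Slc29a1 and removed by adenosine deaminase (Ada) or adenosine kinase (Adk).

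The 250 bases before the annotated start of Nt5e, P2rx7 and P2rx4 are shown because Nt5e and P2rx7 were lower and P2rx4 higher in Rptor-null cells, and because P2rx7 and P2rx4 neighbour each other on chromosome 5. In the RefSeq gene order, 1 miRNA gene and 1 pseudogene start between these 2 receptor genes. The sequences are from RefSeq (GRCm38.p6, 5′ to 3′ on the plus strand, on which all 3 genes lie), at chr9:88327359-88327608 for Nt5e, chr5:122643677-122643926 for P2rx7 and chr5:122707294-122707543 for P2rx4. For P2rx7 the first of 2 listed starts is shown. Capitals mark matches, on either strand, to 4 motifs: the GC box GGGCGG, the hypoxia response core GCGTG, the AP-1 site TGACTCA and the cAMP response element TGACGTCA. Adjoining capitals can be overlapping matches to the same motif.
Nt5e: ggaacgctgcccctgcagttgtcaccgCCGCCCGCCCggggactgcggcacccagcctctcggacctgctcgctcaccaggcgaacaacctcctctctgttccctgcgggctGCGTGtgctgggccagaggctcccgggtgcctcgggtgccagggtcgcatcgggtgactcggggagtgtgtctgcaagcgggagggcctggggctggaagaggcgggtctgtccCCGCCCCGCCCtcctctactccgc
P2rx7: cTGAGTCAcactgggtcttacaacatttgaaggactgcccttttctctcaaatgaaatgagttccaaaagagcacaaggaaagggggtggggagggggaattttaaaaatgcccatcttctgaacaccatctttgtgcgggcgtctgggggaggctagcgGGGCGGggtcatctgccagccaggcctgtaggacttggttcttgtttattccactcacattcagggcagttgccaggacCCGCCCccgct
P2rx4: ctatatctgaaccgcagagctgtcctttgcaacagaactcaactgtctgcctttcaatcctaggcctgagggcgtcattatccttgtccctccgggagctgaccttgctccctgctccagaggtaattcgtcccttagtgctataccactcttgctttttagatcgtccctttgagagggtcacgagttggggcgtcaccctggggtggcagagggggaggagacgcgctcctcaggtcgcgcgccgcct

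The Nt5e window held 4 GC boxes and 1 hypoxia response core, the P2rx7 window 2 GC boxes and 1 AP-1 site, and the P2rx4 window none of the 4 motifs. A GC box lay in 32.7% of all 32851 windows of this length, the hypoxia response core in 28.2%, the AP-1 site in 4.46% and the cAMP response element in 1.55%. GC content was 72% for Nt5e, 53.6% for P2rx7 and 57.2% for P2rx4. A match describes letters in the window and is not a binding site.

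Among the 8 genes measured, Nt5e, P2rx7 and Slc29a1 were lower in Rptor-null cells and P2rx4 was higher, while Entpd1, Ada, Adk and Dpp4 did not pass the test on their brightest probe set. Each gene was represented by the brightest of its probe sets whose mean level exceeded 35.0 intensity units, the 40th percentile, and differences were taken on log2(intensity + 16), a scale that understates folds of dim genes. The test was limma with Benjamini-Hochberg adjustment over 12721 genes. Of all these genes 11.1% were lower and 3.93% higher past the same test, beside 3 lower and 1 higher of the 8. The median log2 difference of the 8 genes was -0.21, and that of all genes tested was -0.060. In 5 equal bins by brightness, numbered from the dimmest, the 8 genes fell in bins 3 to 5. Median differences of all genes in those bins were -0.14, -0.16 and -0.12. The WT group had 1 array, so WT values have no replicate error and the fit assumes that WT varies like the 2 Rptor-null arrays. With 3 arrays, an exact permutation test could not give a p below 0.333.

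With every probe set as a row, 5 of the 24 kept probe sets were lower and 2 higher, where 6.11% and 2.81% of all 27022 kept probe sets were. Of the same 24 probe sets, 4 lay 1.5-fold or more below WT on each Rptor-null array and 1 lay as far above, where the shares were 4.52% and 2.49% of all kept probe sets. This count of 5 is on the scale with 16 added, and it was 6 with 1 added and 4 with 64 added. The probe set left out by the filter, 1449641_at of Adk, read 23.3 and 21.9 in Rptor-null cells and 20.2 in WT cells. The dimmest that was kept, 1421767_at of Adk, read 45.4 and 46.4 in Rptor-null cells and 35.3 in WT cells.

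**Figure D1:**
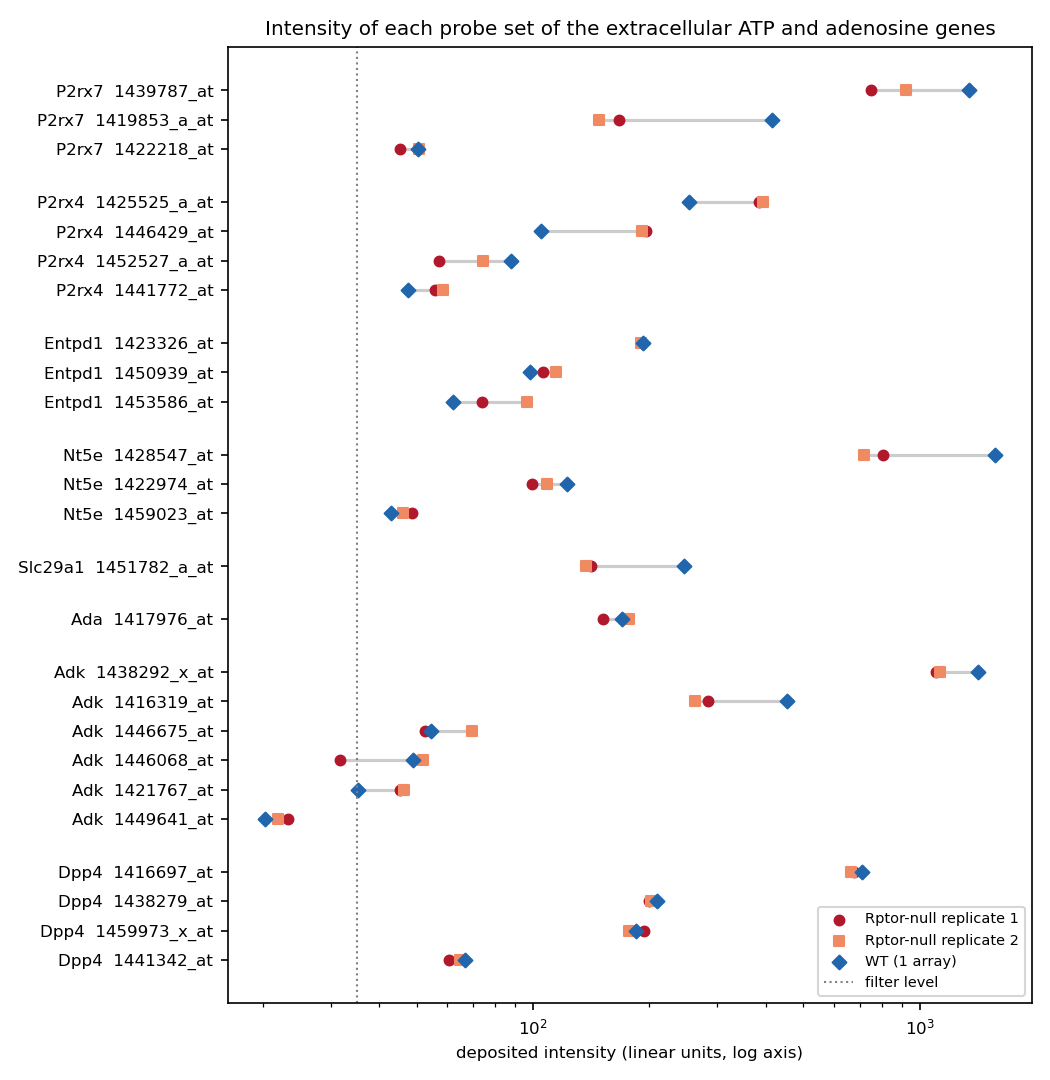
Deposited intensity (linear units on a log axis) of each of the 25 probe sets on both Rptor-null arrays and on WT, with the filter level of 35.0 dotted. The brightest probe sets of Nt5e and P2rx7 lie to the left of WT in both Rptor-null arrays, that of P2rx4 to the right, and those of Entpd1, Ada and Dpp4 close to WT.

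The arrays also differed in measures outside the pathway. Signal at the 3′ end over that at the 5′ end came to 1.94 and 2.58 in the Rptor-null arrays against 1.11 in WT for Gapdh, and 2.65 and 2.87 against 1.40 for beta-actin. In the counts of genes below, unless another processing is named, the test is the limma fit over all genes. By it 3.93% of all genes were higher and 11.1% lower. At an unadjusted p under 0.05, 8.14% of all genes tested were higher and 21.7% lower. Unadjusted counts of genes from this fit are to be read against those shares. Of 10 T cell markers tested 6 were lower and 0 higher, with summed intensities of 30685 and 30071 in Rptor-null arrays and 46346 in WT. Of 9 Tfr markers 5 were lower and 0 higher, with sums of 13759 and 11920 in Rptor-null arrays and 22512 in WT; Foxp3, the lineage factor, read 587 and 423 in Rptor-null cells and 752 in WT cells (adjusted p = 0.0799). Cd4 read 579 and 587 in Rptor-null cells and 696 in WT cells, and Cd3e, a subunit of the T cell receptor complex, read 3575 and 3850 in Rptor-null cells and 4347 in WT cells; neither passed the test. Of 13 macrophage and monocyte markers 7 were higher and 0 lower, with sums of 48690 and 54903 in Rptor-null arrays and 35733 in WT. Among these 13, Hmox1 read 767 and 656 in Rptor-null cells and 931 in WT cells, below WT on both arrays (limma adjusted p = 0.0887). Hmox1 was named after its values were seen. Of 7 basophil and mast cell markers 4 were higher and 0 lower, with sums of 1924 and 2289 in Rptor-null arrays and 1145 in WT. Of 7 dendritic cell markers 2 were lower and 0 higher, although the median log2 difference of that list was above 0, at 0.27. Of 10 NK and cytotoxic markers 1 was higher and 1 lower. None of 7 B cell, 8 neutrophil and 4 erythroid and platelet markers passed the limma test (at an unadjusted p under 0.05, B cell markers had 0 higher and 2 lower, neutrophil markers 0 higher and 3 lower, and erythroid and platelet markers 1 higher and 0 lower). The B cell marker Cd79a read 50.7 and 76.9 in Rptor-null cells and 62.7 in WT cells, and the basophil and mast cell marker Ms4a2 read 381 and 396 in Rptor-null cells and 119 in WT cells. The part of these marker lists and end ratios in the differences of Nt5e, P2rx7, P2rx4, Slc29a1 and Adk, and of the gene lists around the pathway, was not tested. No marker was at 0, since the lowest intensity on any array was 5.94, and the macrophage markers Csf1r (12569 and 14904 in Rptor-null cells, 7911 in WT cells) and Adgre1 (1047 and 1252 in Rptor-null cells, 602 in WT cells) were bright in all pools. In such bulk samples, fewer cells of a type and less RNA per cell cannot be told apart.

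**Figure D2:**
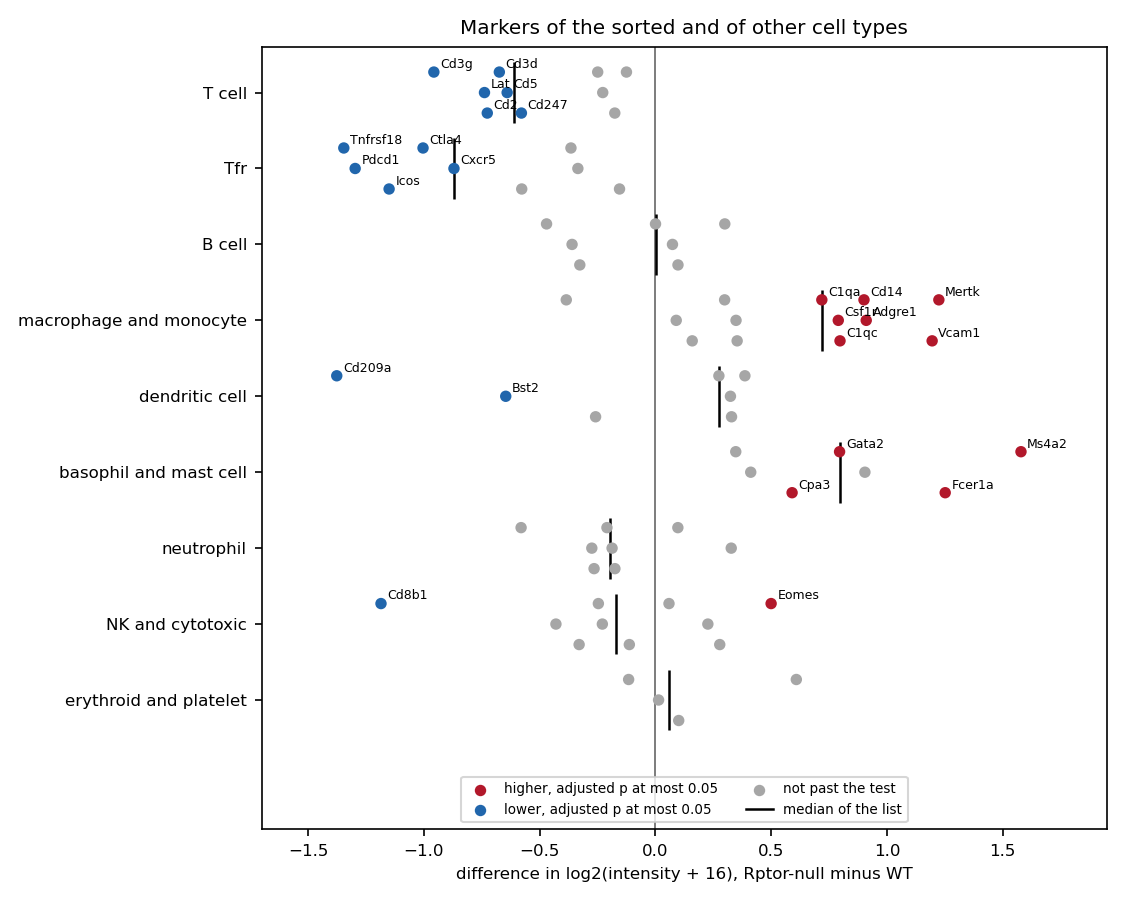
Difference in log2(intensity + 16), Rptor-null minus WT, of each marker gene tested, by cell type; bars mark medians and colours mark genes past the limma test. The medians of T cell and Tfr markers are -0.61 and -0.87, with every marker below 0, and those of macrophage and basophil markers are 0.72 and 0.80, with 1 macrophage marker, Hmox1, below 0.

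On their brightest probe sets, the ATP-gated channels P2rx7 and P2rx4 went in opposite directions. Whether the 2 genes differed from each other in their response was not tested. P2rx7, the channel of T cells and macrophages that high ATP opens, read 748 and 920 in Rptor-null cells and 1346 in WT cells on its brightest probe set, 1439787_at. Both Rptor-null arrays lay below WT, by a log2 difference of -0.69 ± 0.14 (SE; limma adjusted p = 0.0188), or 1.61-fold. A second P2rx7 probe set, 1419853_a_at, read 167 and 149 in Rptor-null cells against 416 in WT cells, a larger difference of -1.32 ± 0.16 on the log2 scale (SE; limma adjusted p = 0.0111 over all kept probe sets) or 2.49-fold. Its Rptor-null values lay close together, far below WT. The third, 1422218_at, read 45.2 and 50.8 in Rptor-null cells and 50.3 in WT cells, so that WT lay between the Rptor-null arrays, near the dim end of the kept range. Only 4.46% of all genes tested had a log2 difference below that of P2rx7 on its brightest probe set. Its call was lost after quantile normalization (adjusted p = 0.0542) and without a variance trend (0.0575).

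P2rx4, a channel that opens at lower ATP and sits largely in lysosomes, especially of macrophages, read 385 and 392 in Rptor-null cells and 253 in WT cells on 1425525_a_at. Both Rptor-null arrays lay above WT, by a log2 difference of 0.59 ± 0.13 (SE; limma adjusted p = 0.0256), or 1.51-fold, and 96.9% of genes had a lower difference. A second probe set, 1446429_at, read 196 and 191 in Rptor-null cells against 105 in WT cells, a log2 difference of 0.80 ± 0.16 (SE; limma adjusted p = 0.0319 over all kept probe sets). The remaining probe sets were dimmer and disagreed with each other: 1441772_at read 55.8 and 58.6 in Rptor-null cells and 47.6 in WT cells, and 1452527_a_at read 57.2 and 74.3 in Rptor-null cells and 87.8 in WT cells. Neither passed the test, and with the mean of all 4 probe sets the P2rx4 difference was 0.31 on the log2 scale (adjusted p = 0.174). The macrophage marker list had 7 of 13 genes higher on the same arrays, and its part in the P2rx4 difference was not tested.

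**Figure D3:**
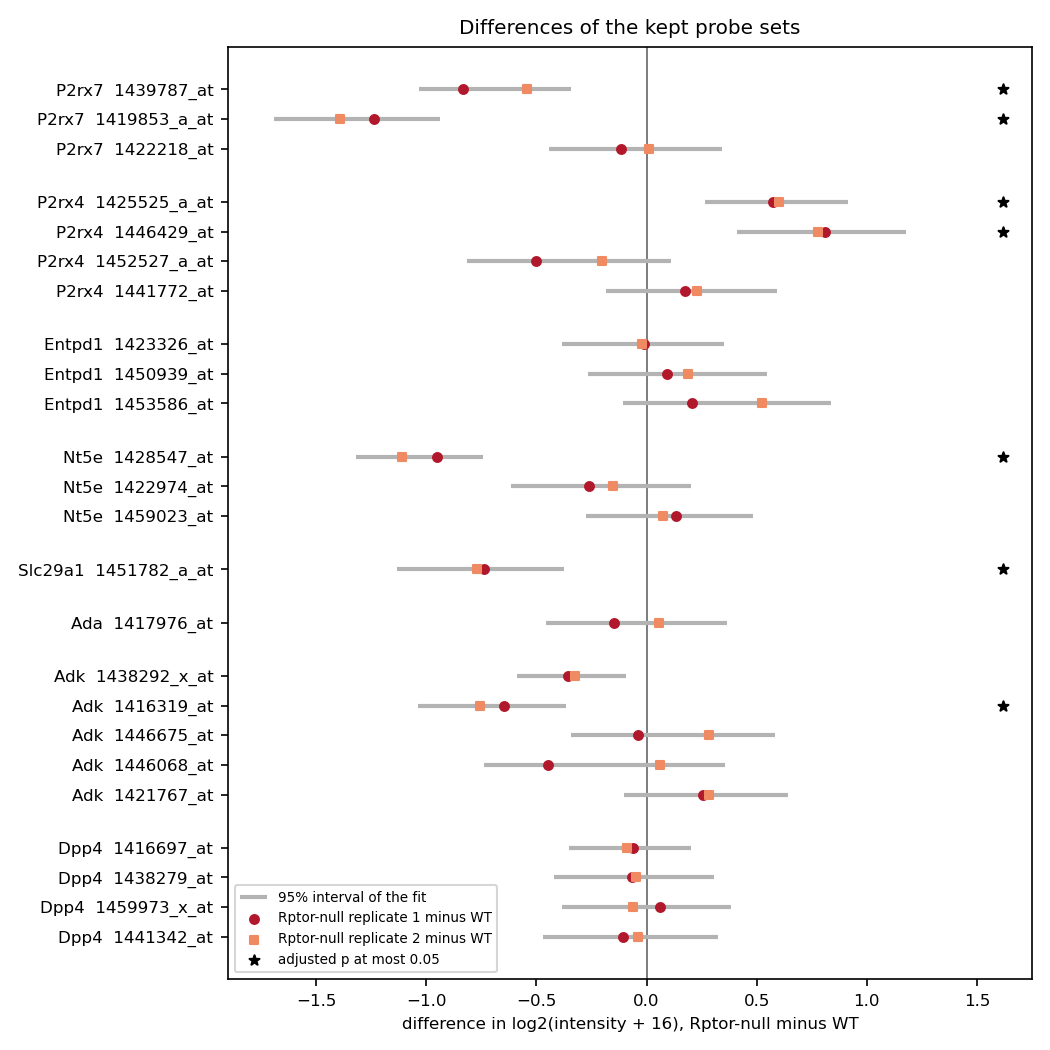
Difference in log2(intensity + 16) of each kept probe set, with points for each Rptor-null array minus the WT array, bars for the 95% interval of the limma fit over 27022 probe sets, and stars for adjusted p at most 0.05. Stars stand beside P2rx7 (2 probe sets, lower), P2rx4 (2, higher) and 1 lower probe set each of Nt5e, Slc29a1 and Adk.

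Of the paired ectoenzymes, Nt5e passed the test and Entpd1 did not. Nt5e, the CD73 enzyme that makes adenosine from AMP, read 805 and 719 in Rptor-null cells and 1571 in WT cells on its brightest probe set, 1428547_at. Both Rptor-null arrays lay near each other and below WT, by a log2 difference of -1.03 ± 0.11 (SE; limma adjusted p = 0.00424). Its 2.04-fold difference was the largest of the 8 genes on their brightest probe sets, and 0.763% of all genes tested had a lower one. The other Nt5e probe sets were dimmer than this one. Of them, 1422974_at read 99.3 and 109 in Rptor-null cells and 122 in WT cells, a log2 difference of -0.21. The dimmest, 1459023_at, read 48.6 and 46.1 in Rptor-null cells and 42.8 in WT cells. Neither passed the test, and averaging the 3 probe sets gave -0.38 (adjusted p = 0.0891). Of the Tfr markers 5 of 9 and of the T cell markers 6 of 10 were lower on the same arrays, and their part in the Nt5e difference was not tested.

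Entpd1, the CD39 enzyme one step upstream, read 191 and 190 in Rptor-null cells and 193 in WT cells on 1423326_at, so that the 3 arrays nearly coincided. The log2 difference was -0.016, with a 95% interval from -0.36 to 0.33 (limma adjusted p = 0.957), which still allows changes of about the size seen for Adk. Its other probe sets read 106 and 114 in Rptor-null cells against 98.3 in WT cells (1450939_at), and 74.0 and 96.3 in Rptor-null cells against 62.0 in WT cells (1453586_at). Both lay above WT in both Rptor-null arrays, and neither passed the test (adjusted p = 0.675 and 0.314). CD39 is also carried by B cells and macrophages. Whether Nt5e and Entpd1 differed from each other in their response was not tested.

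Among genes of adenosine uptake and removal, the data gave lower Slc29a1 and, on part of its probe sets, lower Adk. Slc29a1, the equilibrative transporter that carries adenosine across the membrane, has 1 probe set, which read 141 and 137 in Rptor-null cells and 246 in WT cells. Both Rptor-null arrays lay below WT, by a log2 difference of -0.75 ± 0.15 (SE; limma adjusted p = 0.0185), or 1.69-fold, and its gene-level call was kept under all 10 alternatives that gave a test. In the limma fit over all kept probe sets, the same Slc29a1 values had an adjusted p of 0.0354. There the call was lost without a filter (0.0548), after quantile normalization (0.0550) and without a variance trend (0.0620). Differences varied with brightness over all genes. Less the median difference of genes of like brightness, in 5 equal bins, which was -0.12 or -0.14, the log2 differences of the 4 called genes stood at -0.91 for Nt5e, -0.62 for Slc29a1, -0.56 for P2rx7 and 0.73 for P2rx4.

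Adk, which phosphorylates adenosine back to AMP inside the cell, read 1101 and 1127 in Rptor-null cells and 1415 in WT cells on its brightest probe set, 1438292_x_at, a type that can match several transcripts. The log2 difference was -0.34 ± 0.099 (SE), with a 95% interval from -0.57 to -0.11, and it did not pass the limma test (adjusted p = 0.0596). The next probe set, 1416319_at, read 284 and 263 in Rptor-null cells against 455 in WT cells, a log2 difference of -0.70 ± 0.14 (SE; adjusted p = 0.0319 over all kept probe sets). Both of these probe sets lay below WT in both Rptor-null arrays. With probe sets that can match several transcripts left out, 1416319_at stood for the gene, and Adk was lower (adjusted p = 0.0162), while the mean of its probe sets gave a log2 difference of -0.17 (adjusted p = 0.476). The 3 other kept Adk probe sets, with mean levels from 40.6 to 57.7, had log2 differences from -0.19 to 0.27, and none of them passed the limma test.

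Ada, which turns adenosine into inosine, read 151 and 177 in Rptor-null cells and 169 in WT cells on its only probe set, with WT between the Rptor-null arrays. The log2 difference was -0.045, with a 95% interval from -0.43 to 0.34 (limma adjusted p = 0.885). Dpp4, the peptidase CD26, holds Ada on the cell surface in humans. It read 678 and 664 in Rptor-null cells and 708 in WT cells on 1416697_at, a log2 difference of -0.075 with a 95% interval from -0.33 to 0.18 (limma adjusted p = 0.706). Its 4 probe sets had log2 differences from -0.075 to 9.07e-05, the narrowest spread among the genes with several probe sets. Intervals of this width do not show that Ada or Dpp4 was the same in the groups. The differences of Entpd1, Ada and Dpp4 turned above 0 after quantile and cyclic loess normalization.

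**Figure D4:**
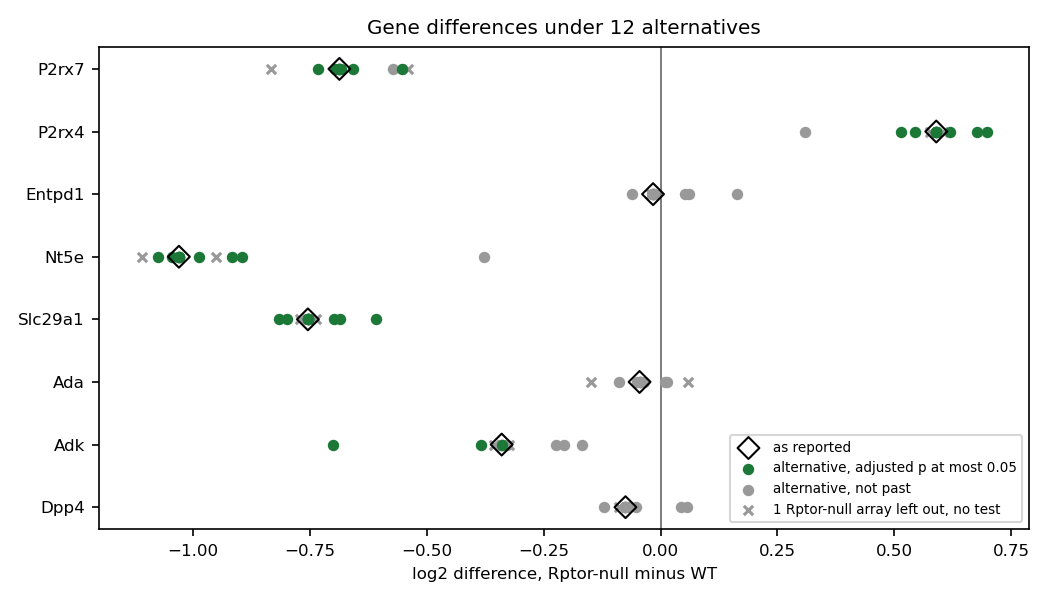
Gene-level log2 difference, Rptor-null minus WT, of the 8 genes as reported (diamonds) and under 12 alternatives; green points passed the test, grey points did not, and crosses leave out 1 Rptor-null array and have no test. P2rx7, Nt5e, Slc29a1 and Adk stay below 0 and P2rx4 above 0 throughout, while Entpd1, Ada and Dpp4 lie on both sides of 0.

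The 6 lists of genes around the pathway gave 70 genes tested, of which 6 were higher and 9 lower, or 8.57% and 12.9% beside 3.93% and 11.1% of all genes. Their median log2 difference was -0.039. The counts depended on the scaling, with 3 lower after quantile normalization and 12 higher and 5 lower after cyclic loess normalization.

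Among genes of ATP release and other P2 receptors, 2 of 10, or 20%, were higher and 0 lower by limma, where 3.93% and 11.1% of all genes were. At an unadjusted p under 0.05, 5 were higher and 0 lower, where 8.14% and 21.7% of all genes were. Another 6 genes of the list fell below the filter. P2ry13, a G protein-coupled ADP receptor, read 532 and 533 in Rptor-null cells and 296 in WT cells, a log2 difference of 0.82 (limma adjusted p = 0.00759). P2ry12, the ADP receptor of platelets and microglia, read 55.5 and 64.6 in Rptor-null cells and 32.4 in WT cells (0.65, limma adjusted p = 0.0347). It no longer passed after quantile normalization or without a filter. Its WT value lay below the filter level of 35.0, so only its higher Rptor-null values brought it past the filter that preceded the test. Both Rptor-null arrays lay above WT for these receptors, as did 7 of 13 macrophage markers past the test, whose part was not tested. Panx1, a channel that releases ATP, read 737 and 693 in Rptor-null cells and 783 in WT cells (adjusted p = 0.496). The ATP-gated channels P2rx1 and P2rx5 did not pass (adjusted p = 0.158 and 0.846), with intensities of at most 79.4 on any array.

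No other ectoenzyme of 9 tested, and no other adenosine receptor or nucleoside transporter of 3 tested, passed the limma test. At an unadjusted p under 0.05, the ectoenzymes had 1 higher and 1 lower, and the receptors and transporters 0 higher and 0 lower. At that cut 8.14% of all genes were higher and 21.7% lower. Entpd5, an intracellular relative of CD39 that acts on UDP, read 275 and 252 in Rptor-null cells and 376 in WT cells (log2 difference -0.49, adjusted p = 0.0568), and its 6 kept probe sets ranged from -0.49 to 0.14. The transporter Slc29a3, a relative of Slc29a1 in lysosomes and mitochondria, read 392 and 373 in Rptor-null cells and 349 in WT cells (adjusted p = 0.575), and Slc29a2 read 40.1 and 24.7 in Rptor-null cells and 38.1 in WT cells (adjusted p = 0.615). The adenosine receptor Adora3 was under the filter level, at 33.5 and 35.3 in Rptor-null cells and 33.9 in WT cells. Adora1 and Cd38 were not named by a probe set here.

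The list around adenosine and AMP inside the cell also holds enzymes of other substrates, among them Hprt, Dguok and Gda. Of its 18 enzymes tested, 5 were lower and 1 higher, or 27.8% and 5.56%, where 11.1% and 3.93% of all genes were. These counts are therefore not of adenosine and AMP enzymes alone. On the same arrays 6 of 10 T cell markers and 5 of 9 Tfr markers were lower, and their part in this count was not tested. Nt5c3b, a cytosolic nucleotidase, read 270 and 256 in Rptor-null cells and 477 in WT cells, a log2 difference of -0.82 (limma adjusted p = 0.00996). Dguok, the mitochondrial kinase of purine deoxynucleosides, read 399 and 448 in Rptor-null cells against 728 in WT cells (-0.76, adjusted p = 0.0109). For both genes the Rptor-null arrays lay far below WT. Ahcy, which releases adenosine from S-adenosylhomocysteine, the nucleotidase Nt5c and the purine salvage enzyme Hprt had smaller log2 differences of -0.48, -0.45 and -0.45 (adjusted p = 0.0306, 0.0314 and 0.0187), and none of these 3 passed after quantile normalization or without a variance trend, nor Ahcy and Nt5c after cyclic loess normalization. The only higher gene, Gda, which turns guanine into xanthine, read 989 and 1243 in Rptor-null cells and 654 in WT cells (0.75, adjusted p = 0.0170), a call lost without a variance trend (adjusted p = 0.0532). The median log2 difference of the list was -0.25.

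In the cAMP list, which holds the pathway downstream of the adenosine receptors Adora2a and Adora2b, 2 of 22 genes, or 9.09%, were lower and 0 higher by limma (0 higher and 2 lower at an unadjusted p under 0.05), where 11.1% of all genes were lower and 3.93% higher by limma. Crem, a cAMP-induced transcription factor gene whose short product represses cAMP targets, read 120 and 136 in Rptor-null cells and 278 in WT cells. Both Rptor-null arrays lay below WT, by a log2 difference of -1.03 ± 0.16 (SE; limma adjusted p = 0.00827), and the call was kept under all 10 alternatives that gave a test. Its 2 kept probe sets had log2 differences of -1.03 and -0.13. T cell and Tfr markers were lower on the same arrays, and their part in the Crem difference was not tested. Prkar1a, a regulatory subunit of protein kinase A, had a log2 difference of -0.37 (adjusted p = 0.0346), a call lost under 3 alternatives. The median of this list was 0.019.

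Among inflammasome genes, which P2X7 activation engages in macrophages, 3 of 8 were higher and 2 lower by limma. These are 37.5% and 25%, where 3.93% of all genes were higher and 11.1% lower. The cytokine gene Il18 read 1408 and 1633 in Rptor-null cells and 880 in WT cells (log2 difference 0.77, limma adjusted p = 0.00808), Il1b read 263 and 250 in Rptor-null cells and 144 in WT cells (0.77, adjusted p = 0.0157), and the sensor gene Nlrp3 read 252 and 277 in Rptor-null cells and 173 in WT cells (0.57, adjusted p = 0.0420). The proteases Casp4 and Casp1 were lower, with log2 differences of -0.69 and -0.43 (adjusted p = 0.0278 and 0.0411). Nlrp3 no longer passed without a filter or without a variance trend, Casp4 after quantile normalization or without a variance trend, and Casp1 under any of these or after cyclic loess normalization. The higher genes stood beside 7 of 13 macrophage markers that were higher, and whether the same cells express them was not tested.

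**Figure D5:**
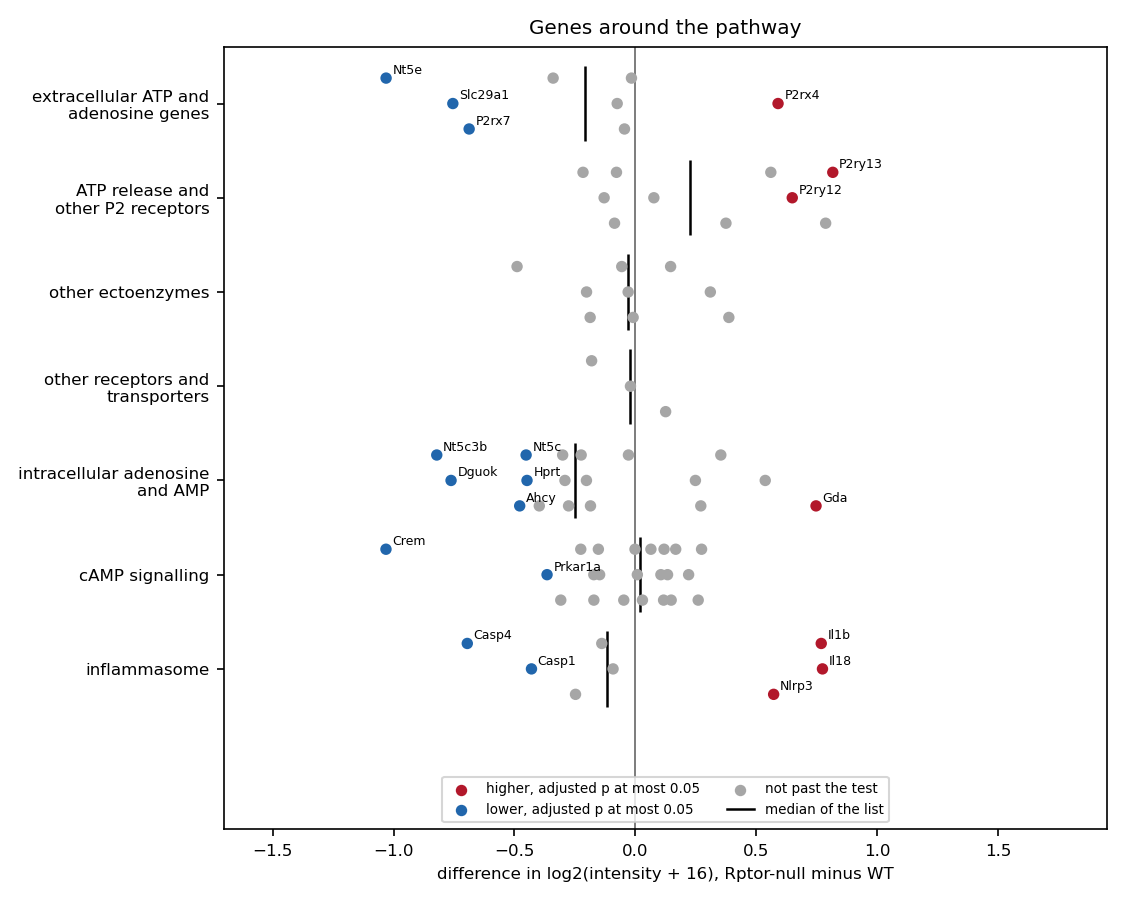
Difference in log2(intensity + 16), Rptor-null minus WT, of each gene tested in the pathway and in 6 lists around it; bars mark list medians, and colours mark genes past the limma test. Nt5e and Crem lie farthest to the left, at -1.03 each, and P2ry13 farthest to the right, at 0.82.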

How the data were processed

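The authors deposited linear intensities, 1 per probe set and array; the submitters' processing notes name MAS5 without a version, and the background correction, scaling and summary method are not given in the sources used here. Between 2.58% and 2.77% of each array's values shared 1 fraction, in steps of eighths, on all arrays, and the summary method was not settled from the values. Array medians were 54.9 and 54.8 (Rptor-null) and 52.7 (WT). Precision is set by having 3 arrays.

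The platform annotation named 34945 probe sets for 1 gene and 932 for several, and 9160 are unnamed here; 0 symbols changed when updated through Entrez IDs. After 64 control probe sets were set aside, group means were averaged, and probe sets above the 40th percentile of that average were kept (27022). Differences in log2(intensity + 16) were then tested with limma 3.58.1 under R 4.3.3 (eBayes with a mean-variance trend; 1 residual degree of freedom; two-sided, threshold 0.05), over 12721 genes (6.39 prior degrees of freedom) and again over all kept probe sets (5.85). The labels call the Rptor-null pools biological replicates, and no batch is given. The members and lists were chosen with earlier results of these data known, and the 4 motifs shown were chosen among others searched. Named genes were all members, listed relatives of them, up to 6 called genes of each list around the pathway, and the defining markers of the cell type lists; Rptor was named outside this rule, as the targeted gene.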

Additional observations from a re-analysis of the deposited data

How the results depend on the processing

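The directions of Nt5e, P2rx7, Slc29a1, Adk and P2rx4 held under all 12 alternatives: other pseudocounts (1, 64), filters (none, 60th percentile), scalings (quantile, median centring, and cyclic loess, which was added after seeing the data), treatments of probe sets, no variance trend, and each Rptor-null array left out. Those last fits have no residual degree of freedom and gave no counts of calls. No paired analysis was possible because the WT group has 1 array.

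After quantile normalization and after cyclic loess, differences near 0 turned: Entpd1 to 0.060 and 0.051, Ada to 0.013 and 0.0093, and Dpp4 to 0.043 and 0.057; Entpd1 was 0.16 with the mean of probe sets. The median of the 8 genes was -0.10 after quantile normalization, -0.25 after median centring, -0.11 with the mean of probe sets, -0.38 without probe sets that can match several transcripts, -0.098 after cyclic loess, and -0.25 to -0.21 with 1 Rptor-null array left out. With the mean of probe sets 0 of the 8 genes were higher by limma, and 0 at an unadjusted p under 0.05. Of the member probe sets, 2 were higher and 5 lower as reported, where 2.81% and 6.11% of all kept probe sets were. Without a filter 1 was higher and 2 lower, and after quantile normalization 2 were lower. Without a variance trend 0 were higher and 0 lower by limma (2 and 5 at an unadjusted p under 0.05). Shares of all probe sets were not counted under these alternatives. Genes of the lists around the pathway that were lower numbered 3 after quantile normalization and 3 without a variance trend; after cyclic loess 12 were higher and 5 lower. Over all genes, 500 were higher and 1411 lower as reported, and 767 were lower after quantile normalization. Calls were 301 higher and 769 lower without a variance trend, and 916 higher and 1187 lower after cyclic loess. Higher genes were thus 26.2% of calls, against 41.3% after quantile normalization, 43.6% after cyclic loess and 19.9% after median centring. The cause of these shifts was not tested. Signal near the filter level limits what the dim probe sets can show.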
